A study of Mus musculus with 6 samples.

Results

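The genes described here build, anchor to or cut the extracellular matrix. They are collagens, laminins, nidogens, fibulins, fibronectin, Sparc, thrombospondins, the small proteoglycans Dcn, Lum and Ogn, the integrin subunits, and the matrix metalloproteases with their Timp inhibitors. They were taken by gene symbol from the array's platform annotation, with the probe set of the highest mean level for each gene, and number 118 of the 22180 genes that have a probe set of their own. Of the 118, 44 are collagens and 25 are integrin subunits, 20 are matrix metalloproteases, and 7 have a second probe set.

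RNA came from primary hippocampal cells of mouse embryos at prenatal day 18. In 3 samples the cells received an AAV1/2 vector (adeno-associated virus) for Diras2 knockdown, and in 3 samples a scrambled control in the same vector type. Diras2 is a small GTPase of the Ras family found in brain. Infection followed 7 days after seeding and RNA was taken 7 days after infection, so both groups are virus-infected cultures and no uninfected cells are compared here. The labels give no strain, and no promoter or cell type for the vector. They name biological replicates without saying whether these are separate litters or cultures, so the scatter of these 6 samples may be partly technical. Each p-value here rests on that scatter, with the variance of each gene drawn towards the spread of all genes.

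Collagens are triple-helical proteins. Fibrillar types form the fibres of connective tissue, whereas type IV collagen makes, with laminins and nidogens, the sheet of the basement membrane, which in brain lies around vessels and under the meninges. Integrins are receptors of 1 alpha and 1 beta subunit that link this matrix to the actin cytoskeleton, and metalloproteases cut matrix and cell surface proteins under the control of Timp inhibitors. Neurons in culture are known to carry integrins, while much of the collagen and laminin of brain tissue is made by vascular, meningeal and glial cells.

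Values are log2 RMA levels, on which a difference of 1 is 2-fold, and differences are knockdown minus control. Diras2 itself stood at 7.17, 6.23 and 6.08 in the knockdown arrays, against 10.17, 10.17 and 9.76 in the control arrays. All neuron markers and 8 of 9 astrocyte markers lay above the median level of all genes, which was 5.06. By contrast 8 of 9 endothelial, 7 of 9 microglial, 5 of 8 fibroblast and meningeal and 4 of 8 mural cell markers lay at or below it, Cldn5, Tie1, Aif1 and Higd1b among them. A level at or below that median may be background signal, and detection was not tested.

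Matrix and integrin genes as a group changed little after Diras2 knockdown. Of the 118, 1 rose and 3 fell at an adjusted p under 0.05, with limma over all genes tested, and 114 did not pass. That is 3.39% of the group, against a background of 7.8% of all genes, 4.17% higher and 3.64% lower. The median log2 difference was -0.01 (0.00 for all genes), and 56 members lay above 0, 61 below and 1 at 0. Fbln1, Col8a1 and Col26a1 fell and Itgb1 rose. The 95% interval of the difference lay within 2-fold in both directions for 110 members, or 93.2%, the same share as among all genes. The exceptions were Fbln1, Col8a1, Lum, Ogn, Dcn, Thbs1, Col3a1 and Fbln5.

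Many of these genes gave low signals. Their median level was 4.75, and 71 of 118 lay at or below the median of all genes, where 0 were called by limma and 6 had an unadjusted p under 0.05. That is 8.45% of the 71. Of all 118 members 18, or 15.3%, had such a p, against 20.9% of all genes. All 4 calls fell among the 47 members above that median, 8.51% of them, against 14.6% of all genes at such levels. RMA pulls weak signals towards a floor, so a change in the 71 dim members could be understated.

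**Figure D1:**
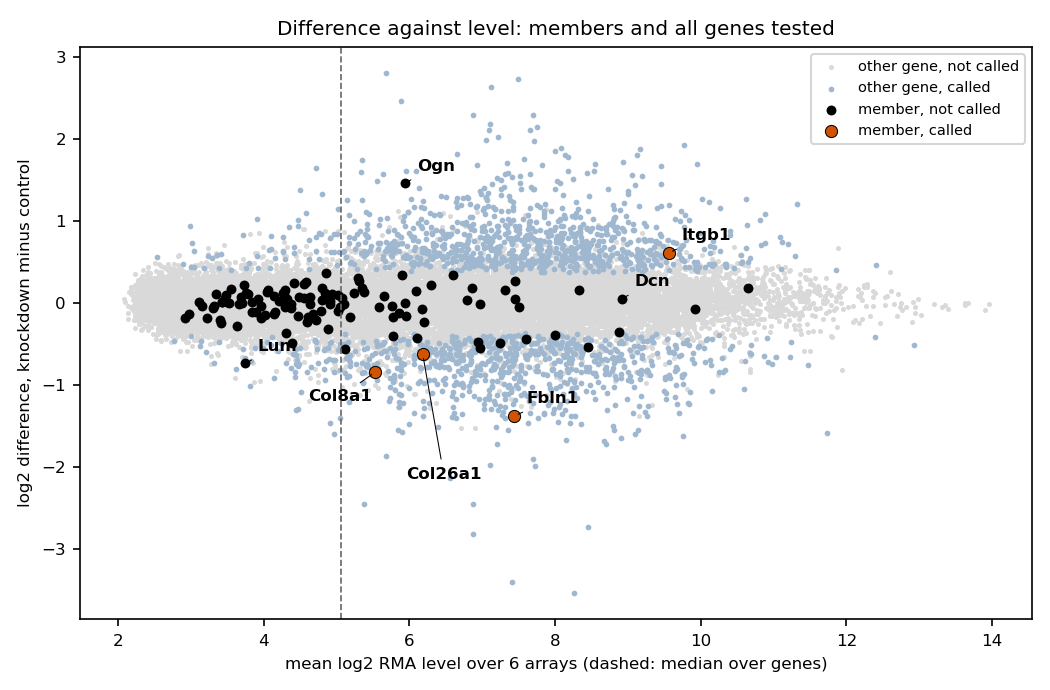
Mean log2 RMA level over the 6 arrays (x axis) against the log2 difference, knockdown minus control (y axis), for the 118 members (large points) and all other genes tested (small points). Most members sit left of the dashed median of 5.06 and near 0, and the 4 called members, Fbln1, Col8a1, Col26a1 and Itgb1, lie to its right.

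With 1 array left out, whichever it was, fewer of all genes were called. Member calls also became fewer, except without control replicate 1. With either the first or the second knockdown array left out, 0 members were called by limma and 18 had an unadjusted p under 0.05, while 5.7% and 3.37% of all genes were called. With the second control array left out the member counts were 0 and 14, and 3.11% of all genes were called. Without control replicate 1, 6 members fell and 0 rose, with 6.7% of all genes called. The RNA integrity number (RIN) was 9, 9.3 and 9.2 for knockdown RNA, against 9.2, 9 and 8.8 for control RNA. With RIN as a covariate all 4 calls were lost, at adjusted p-values by limma from 0.0792 to 0.173, Ogn was called at 0.0110, and 3.42% of all genes were called. The differences in that fit were 0.68 for Itgb1, -0.60 for Col26a1, -1.14 for Fbln1 and -0.66 for Col8a1, each in the same direction as without the covariate.

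With the replicate number as a block, 1 of the 118 members rose and 8 fell. Of all 22180 genes 1341 (6.05%) rose and 1252 (5.64%) fell in that fit. The block added Itga4, Itgb5, Lum, Mmp14 and Mmp19 to the members that fell. In 20 members the groups did not overlap, 16.9% of the group against 25.5% of all genes, and of these 4 were higher and 16 lower in the knockdown. Among all genes without overlap, 2968 were higher and 2682 lower in the knockdown.

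Promoter windows are shown for the called genes, since these carry the result, and reach from 250 bases before the annotated start to 50 after it (RefSeq, GRCm38.p6). The table holds windows for 86 of the 118 members, Col26a1 not among them. Capitals mark the GC box, spelled GGGCGG, and the E-box, spelled CACGTG, each searched on both strands, so that a GC box on the other strand reads CCGCCC. No 2 matches overlap in the windows shown. The TATA box (letters TATAAA), the CCAAT box and the AP-1 site (letters TGANTCA) were searched in the same way, with 0 matches in these windows. Itgb1 lies on chr8:128685404-128685703 (plus strand), Col8a1 on chr16:57754688-57754987 (minus strand) and the first of 2 Fbln1 windows on chr15:85205699-85205998 (plus strand).
Fbln1: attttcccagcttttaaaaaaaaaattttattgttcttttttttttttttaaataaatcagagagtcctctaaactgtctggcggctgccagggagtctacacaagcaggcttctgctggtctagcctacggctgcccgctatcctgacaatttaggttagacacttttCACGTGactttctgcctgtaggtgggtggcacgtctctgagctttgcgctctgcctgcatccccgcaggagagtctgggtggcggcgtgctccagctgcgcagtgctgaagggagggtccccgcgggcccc
Col8a1: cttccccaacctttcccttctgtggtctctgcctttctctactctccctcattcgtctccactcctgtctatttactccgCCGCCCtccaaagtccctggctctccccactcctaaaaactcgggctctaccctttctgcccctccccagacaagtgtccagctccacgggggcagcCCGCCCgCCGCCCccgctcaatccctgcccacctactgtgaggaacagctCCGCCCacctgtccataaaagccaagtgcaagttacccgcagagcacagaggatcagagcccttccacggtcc
Itgb1: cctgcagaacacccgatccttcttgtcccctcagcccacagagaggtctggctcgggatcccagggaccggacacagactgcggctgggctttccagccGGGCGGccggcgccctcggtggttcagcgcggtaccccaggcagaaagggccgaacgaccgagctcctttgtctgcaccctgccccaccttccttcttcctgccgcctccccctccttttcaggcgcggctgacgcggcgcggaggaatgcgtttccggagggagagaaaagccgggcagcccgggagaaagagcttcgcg

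The Col8a1 window holds 4 GC boxes, that of Itgb1 1 and the first of Fbln1 0, where the second Fbln1 window, which overlaps it, holds 2. Each Fbln1 window holds 1 E-box. GC boxes occur in 50 of 97 member windows (51.5%) and in 35.7% of all 32851 windows of this length, and E-boxes in 3.09% and 7.15%. The other motifs were found in 15.5% of member windows for the TATA box (13.6% of all), 29.9% for the CCAAT box (37.4% of all) and 10.3% for the AP-1 site (7.81% of all). These are matches of letters, with no measure of binding.

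The fibrillar collagens are the fibre-forming types, and none of the 11 passed the test. Their differences ran from -0.17 to 0.30 with a median of 0.08. Col1a1, a chain of type I collagen, had levels of 6.11, 6.30 and 6.80 in the knockdown and 6.05, 6.22 and 6.30 in the control. Its partner chain Col1a2 had 5.15, 5.39 and 5.79 in the knockdown and 4.81, 5.24 and 5.49 in the control. The groups overlapped for both, with differences of 0.21 (95% interval -0.19 to 0.62) and 0.26 (-0.22 to 0.75). Col27a1, a fibrillar collagen of cartilage, had the smallest p of this class and a difference of 0.18 (SE 0.14, adjusted p 0.549 by limma). Col3a1, the type III chain, was widely spread, with 4.88, 5.38 and 6.10 in the knockdown and 4.79, 5.53 and 5.13 in the control.

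Among the 17 network, beaded-filament and anchoring collagens, 1 fell and 16 did not pass. That is 5.88% of the class, against 7.8% of all genes. Col8a1, a short-chain collagen of vessel walls and of the basement membrane beneath the corneal endothelium, had levels of 5.0, 4.94 and 5.38 in the knockdown and 5.50, 6.14 and 6.22 in the control. Every knockdown array lay below every control array, with control replicate 1 the closest to them. The difference was -0.85 (SE 0.21), or 1.80-fold lower, with an adjusted p of 0.0453 by limma (0.0143 with the block). Its call was lost without any 1 array other than control replicate 1 (adjusted p from 0.0634 to 0.169).

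Type IV collagen, the backbone of the basement membrane, did not pass in any of its 6 chains. Col4a1 and Col4a2 are the chains of the common form, and their genes lie head to head. Their promoter windows share 78 bases on chr8:11312777-11312854 (GRCm38.p6, shown on the plus strand, Col4a2 being on the plus strand and Col4a1 on the minus). The stretch holds 1 GC box, in capitals, and 0 matches of the other motifs.
Col4a1 and Col4a2: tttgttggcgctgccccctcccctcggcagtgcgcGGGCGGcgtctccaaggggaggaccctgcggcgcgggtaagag
Col4a1 had levels of 6.22, 5.82 and 6.22 in the knockdown and 6.13, 6.41 and 6.44 in the control, a difference of -0.24 (95% interval -0.58 to 0.10). Col4a2 had 6.20, 5.93 and 6.38 in the knockdown and 5.80, 6.08 and 6.20 in the control, a difference of 0.14 (-0.21 to 0.49). The groups overlapped for both chains.

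Type XXVI collagen was placed with the 10 fibril-associated collagens and was the only one of them that passed, by falling. That is 10% of the class, against 7.8% of all genes. Col26a1, a secreted collagen first described in testis and ovary, had 5.75, 5.80 and 6.06 in the knockdown and 6.38, 6.53 and 6.59 in the control, with a gap between the groups. Its difference was -0.63 (SE 0.12), or 1.55-fold lower, with the smallest adjusted p of the 118 members, 0.0173 by limma. The call was lost on leaving out knockdown replicate 1 (adjusted p 0.0541), knockdown replicate 2 (0.0787) or control replicate 2 (0.0789). Col9a2, a type IX chain, had 6.77, 6.81 and 6.83 in the knockdown and 6.78, 6.70 and 6.83 in the control, with overlap. None of the 6 membrane and endostatin collagens passed, and they ranged from -0.16 (Col17a1, a transmembrane collagen of hemidesmosomes, adjusted p 0.380) to 0.18. Col23a1, another transmembrane collagen, differed by -0.08 (95% interval -0.34 to 0.18).

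**Figure D2:**
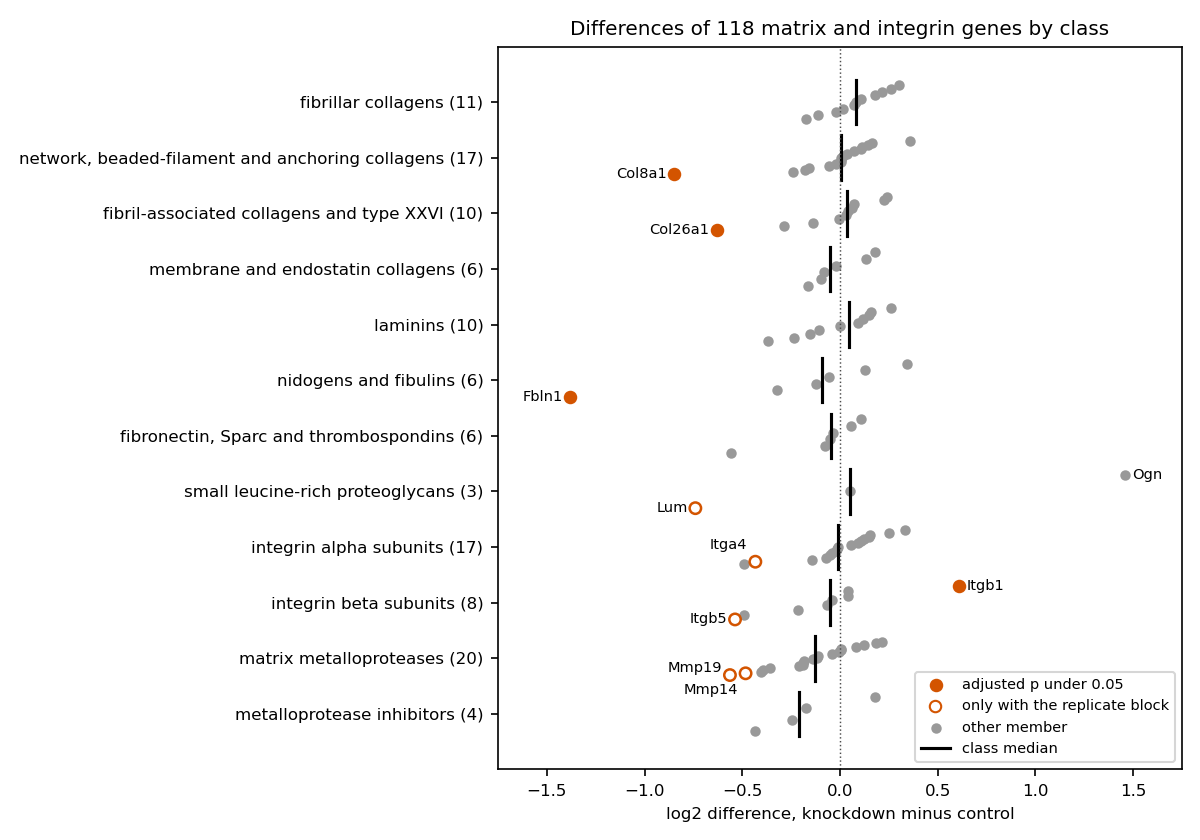
Log2 difference, knockdown minus control (x axis), for each of the 118 members by class (rows, number of genes in brackets), with the class median as a bar. Filled orange points passed at an adjusted p under 0.05, open ones only with the replicate block, and the class medians lie between -0.21 and 0.08.

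Laminins are the cross-shaped trimers of the basement membrane. None of the 10 measured chains passed, and their median difference was 0.05. Lamb1, a beta chain of the laminins of early development, had 7.79, 7.28 and 7.67 in the knockdown and 7.67, 7.34 and 6.95 in the control, with overlap. Lamc1, the common gamma chain, had a difference of 0.16 (95% interval -0.21 to 0.53). Lamb3, a chain of the skin-type laminin, was low throughout, with 4.02, 4.28 and 4.07 in the knockdown and 4.62, 4.42 and 4.44 in the control. Its groups did not overlap, and its difference of -0.37 (SE 0.11) had an adjusted p of 0.0973.

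The largest decrease of the 118 was that of Fbln1, fibulin 1, a secreted glycoprotein that binds fibronectin, laminin and nidogen. Its levels were 6.60, 6.46 and 7.20 in the knockdown and 7.75, 7.97 and 8.68 in the control, so every knockdown array lay below every control array. The means were 6.75 ± 0.39 in the knockdown and 8.13 ± 0.49 in the control (SD, n = 3 each), a difference of -1.38 (SE 0.27), or 2.60-fold lower, with an adjusted p of 0.0191 by limma and 0.00172 with the replicate block. Within same-numbered pairs the difference was -1.15, -1.51 and -1.48. Leaving out knockdown replicate 1 gave an adjusted p of 0.0587, knockdown replicate 2 one of 0.0858 and control replicate 2 one of 0.0649.

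The other nidogens and fibulins did not pass, so 1 of 6 (16.7%) was called, against 7.8% of all genes. Fbln5, which helps to assemble elastic fibres, had 7.04, 6.63 and 6.64 in the knockdown and 5.57, 6.79 and 6.92 in the control, where control replicate 1 stood below all other arrays. Nid1, the linker between laminin and type IV collagen, had 5.30, 5.75 and 6.36 in the knockdown and 5.30, 6.11 and 6.37 in the control. Its second probe set showed a difference of -0.03, beside -0.12 for the first.

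Fibronectin, Sparc and the thrombospondins gave 0 calls among 6 genes by limma, and 0 had an unadjusted p under 0.05. Sparc, a calcium-binding matricellular protein made by glia, had 9.85, 9.77 and 10.04 in the knockdown and 9.56, 10 and 10.33 in the control, a difference of -0.08 (95% interval -0.51 to 0.36). Fn1, fibronectin, had 7.44, 7.39 and 7.60 in the knockdown and 6.99, 7.65 and 7.95 in the control. Thbs1, thrombospondin 1, which astrocytes secrete and which promotes synapse formation, had 6.91, 6.18 and 6.98 in the knockdown and 6.95, 7.63 and 7.16 in the control. Its difference of -0.56 (SE 0.25, adjusted p 0.244) rested mostly on replicate 2, where the pair differed by -1.45, against -0.04 and -0.18 in the other pairs.

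The small leucine-rich proteoglycans, which bind collagen fibres, gave 0 calls among 3 genes by limma. Of the 3, 2 had an unadjusted p under 0.05, as had 20.9% of all genes. Dcn and Ogn had the largest spread within groups of the 118. Ogn, osteoglycin, had 7.16, 5.89 and 6.95 in the knockdown and 4.26, 5.56 and 5.81 in the control. The groups did not overlap, although knockdown replicate 2 lay close to the control arrays. The difference was 1.46 (SE 0.44), 2.75-fold in size, with an adjusted p of 0.0963 by limma (0.0811 with the block), and the pairs differed by 2.90, 0.33 and 1.14. Lum, lumican, was dim, with 3.29, 3.01 and 3.83 in the knockdown and 4.40, 3.92 and 4.03 in the control, and had a difference of -0.74 (SE 0.22, adjusted p 0.0838, and 0.0442 with the block). Dcn, decorin, had 9.37, 9.29 and 8.19 in the knockdown and 9.86, 9.57 and 7.27 in the control. Both arrays numbered 3 were low, and this gene had a pooled SD within groups of 1.11, where the median member had 0.19.

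**Figure D3:**
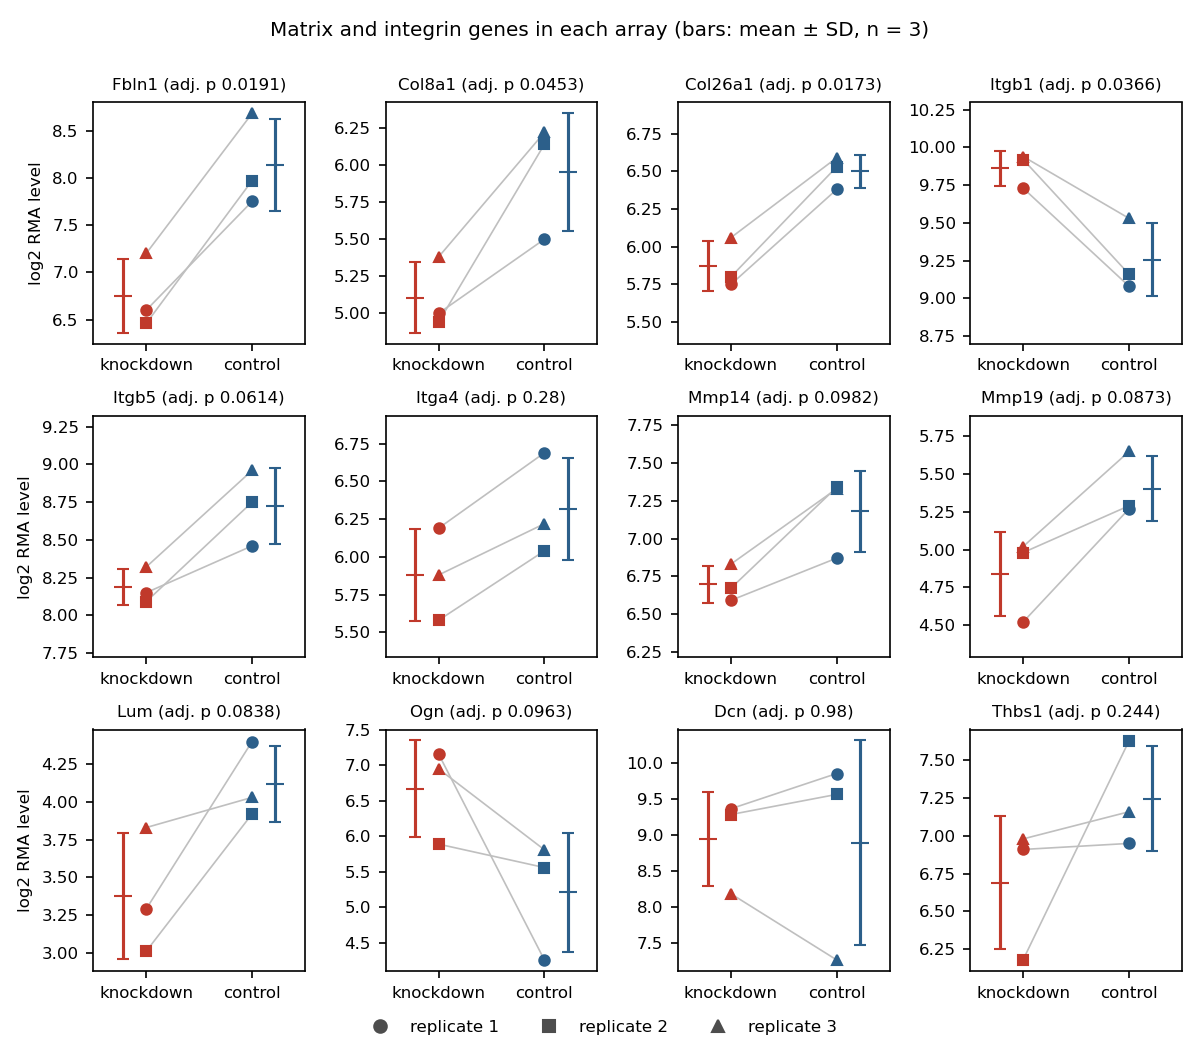
Log2 RMA level (y axis) of 12 members in the knockdown (red) and control (blue) arrays, with lines joining arrays of the same replicate number and bars for the mean ± SD of 3 arrays. The groups are apart for the called Fbln1, Col8a1, Col26a1 and Itgb1, and also for Itgb5, Mmp14, Mmp19, Lum and Ogn, which did not pass. The pair differences of Itga4 are alike at -0.50, -0.46 and -0.34 though its groups overlap. The arrays numbered 3 are the lowest of their groups for Dcn.

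Of 25 integrin subunits 1 rose, 0 fell and 24 did not pass. That is 4% of the subunits, against 7.8% of all genes. Itgb1, the beta subunit shared by most receptors for collagen, laminin and fibronectin, had 9.73, 9.92 and 9.94 in the knockdown and 9.08, 9.16 and 9.53 in the control. Every knockdown array was above every control array. The difference was 0.61 (SE 0.14), or 1.52-fold higher, with an adjusted p of 0.0366 by limma and 0.0161 with the block. The call was lost on leaving out any 1 array except control replicate 3 (0.0536 to 0.144) and with quantile normalization (0.0546).

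None of the other 7 beta subunits passed. Itgb5, which pairs with the alpha v subunit to bind vitronectin, had 8.15, 8.09 and 8.32 in the knockdown and 8.46, 8.75 and 8.96 in the control, without overlap. Its difference of -0.54 (SE 0.14) had an adjusted p of 0.0614 by limma, and of 0.0267 with the block. Itgb8, also a partner of alpha v and an activator of TGF-beta in brain, had 7.21, 7.48 and 7.73 in the knockdown and 6.79, 7.39 and 8.11 in the control, with overlap. Itgb2, the beta subunit of leukocytes, was dim and had a difference of -0.49 (adjusted p 0.173, and 0.0211 without control replicate 1).

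The alpha subunits, which choose the ligand, gave 0 calls among 17 by limma, and their median difference was -0.01. Of the 17, 2 (11.8%) had an unadjusted p under 0.05, against 20.9% of all genes. Itga6, which with Itgb1 or Itgb4 forms laminin receptors, had 7.15, 6.74 and 7.12 in the knockdown and 7.61, 7.55 and 7.33 in the control. The groups did not overlap, and the difference was -0.49 (SE 0.14, adjusted p 0.0786). Itga4, which with Itgb1 binds fibronectin and VCAM-1, had 6.19, 5.58 and 5.88 in the knockdown and 6.69, 6.04 and 6.22 in the control. Here the groups overlapped but every pair was lower in the knockdown, and the adjusted p was 0.280 without the block and 0.0327 with it.

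Itga8, a receptor for RGD ligands with Itgb1, stood at 6.00, 5.96 and 6.23 in the knockdown, against 5.58, 5.83 and 5.78 in the control. Its difference of 0.33 (SE 0.12) had an adjusted p of 0.149. Itgav, the alpha v subunit, had 8.15, 8.37 and 8.70 in the knockdown and 7.74, 8.26 and 8.77 in the control, a difference of 0.15 (95% interval -0.43 to 0.73). Its second probe set showed a difference of 0.04.

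Matrix metalloproteases had a median difference of -0.13, the lowest among classes of over 4 genes, with 14 of 20 below 0. Yet 0 of the 20 passed by limma, and 3 (15%) had an unadjusted p under 0.05, against 20.9% of all genes. Mmp14, a membrane-bound protease that activates Mmp2, had 6.59, 6.67 and 6.83 in the knockdown and 6.87, 7.34 and 7.33 in the control. Mmp19 had 4.52, 4.98 and 5.02 in the knockdown and 5.27, 5.29 and 5.65 in the control. Neither overlapped between groups. Mmp14 differed by -0.48 (SE 0.15, adjusted p 0.0982, or 0.0375 with the block) and Mmp19 by -0.56 (SE 0.17, adjusted p 0.0873, or 0.0269 with the block).

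Mmp24, a membrane-type protease of the nervous system that cleaves N-cadherin, had 8.77, 8.75 and 8.60 in the knockdown and 8.99, 9.15 and 9.05 in the control. This small difference, -0.36 (SE 0.10, adjusted p 0.0760), had no overlap between groups. Mmp16 had no overlap either but was higher in the knockdown, by 0.18 (SE 0.105, adjusted p 0.383 by limma). Mmp17, anchored to the membrane by a lipid, differed by -0.39 (adjusted p 0.325, and 0.0584 with the block). Of the gelatinases, Mmp2 had a difference of -0.40 (95% interval -0.90 to 0.09) and Mmp9, much studied in hippocampal plasticity, one of 0.12 (-0.23 to 0.48). The inhibitors did not pass either. Timp2, which binds Mmp14 on the cell surface, had 11.02, 10.65 and 10.55 in the knockdown and 10.78, 10.54 and 10.37 in the control, a difference of 0.18 (SE 0.16). Timp3, the matrix-bound inhibitor, differed by -0.44 (adjusted p 0.199), and Timp1, the inducible one, by -0.24 (adjusted p 0.185) at dim levels of 3.21 to 3.59.

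**Figure D4:**
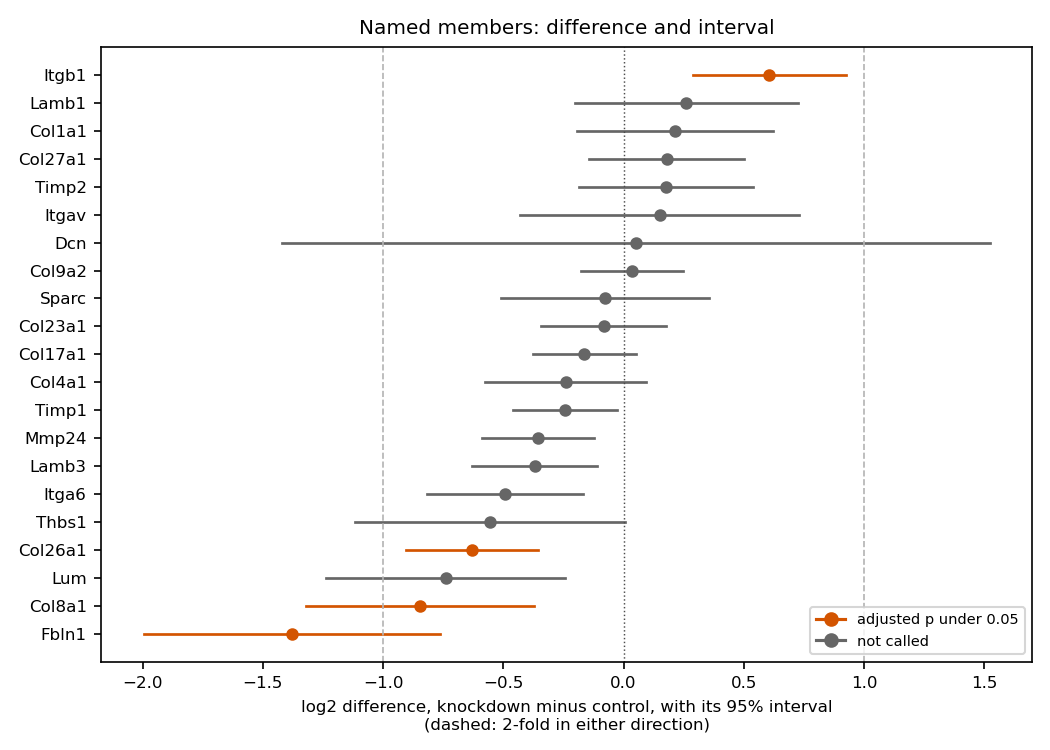
Log2 difference, knockdown minus control (x axis), with its 95% interval by limma for the 21 members named by rule (rows), called ones in orange, and 2-fold bounds dashed. The intervals of Fbln1 (-2.00 to -0.76), Col8a1, Col26a1 and Itgb1 exclude 0, as do those of Lum, Itga6, Lamb3, Mmp24 and Timp1, which are not adjusted for the number of genes and did not pass. The interval of Dcn (-1.42 to 1.52) spans 2-fold in both directions.

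Genes that act on matrix and integrins without belonging to the 118 were counted in the same fit. Of 26 measured genes of the integrin adhesion machinery 4 rose, 1 fell and 21 did not pass, with a median difference of -0.04. That is 19.2% of the list, against 7.8% of all genes. Of the 26, 20 lay above the median level, where 14.6% of all genes were called. Lims1, which ties integrin-linked kinase to the adhesion site, had 7.53, 7.64 and 7.65 in the knockdown and 6.64, 6.32 and 6.38 in the control. It was 2.23-fold higher, with an adjusted p of 0.00135 by limma, and kept its call under every alternative run. Crkl and Crk, adaptors of the same pathway, were 1.81-fold and 1.58-fold higher, Actn1, an actin cross-linker of adhesion sites, 1.41-fold higher and Tns1, tensin 1, 1.39-fold lower. The calls of Crk, Actn1 and Tns1 were each lost without 5 or more of the 6 arrays in turn (adjusted p up to 0.158) and with RNA integrity as a covariate.

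Of 25 measured collagen-modifying genes 0 rose, 2 fell and 23 did not pass, with a median difference of 0.01. That is 8% of the list, near the 7.8% of all genes. Of the 25, 22 lay above the median level, where 14.6% of all genes were called. Plod2, the lysyl hydroxylase that sets collagen cross-links, had 5.25, 5.27 and 5.44 in the knockdown and 6.03, 6.50 and 6.79 in the control. It was 2.17-fold lower, with an adjusted p of 0.00963, and of 0.0514 and 0.0533 without knockdown or control replicate 2. Colgalt2, which adds galactose to collagen, was 1.48-fold lower (adjusted p 0.0355, and up to 0.141 without 1 array).

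In the remaining lists the called share was 2.86% for other matricellular proteins, 15.4% for other matrix receptors and 4.17% for Adam and Adamts proteases. It was 10% for plasminogen system and inhibitor genes and 0% for elastic fibre genes, against 7.8% of all genes. Of all genes above the median level 14.6% were called. In the same order 20 of 35, 10 of 13, 13 of 24, 5 of 10 and 7 of 15 listed genes lay there. Of 35 other matricellular proteins 1 fell, Tnc, the glial matrix protein tenascin C, with 5.27, 5.44 and 5.56 in the knockdown and 6.05, 6.39 and 6.52 in the control (adjusted p 0.00898, and 0.0517 without control replicate 2). Of 13 other matrix receptors Sgcb, a sarcoglycan, was 1.78-fold higher (adjusted p 0.00450) and Cd44, the hyaluronan receptor, 1.58-fold lower at 0.0497, a call lost under 10 of 14 alternatives. Of 24 Adam and Adamts proteases 1 fell, Adamts8, at 0.00518, but the mean of its 2 probe sets gave 0.181. Of 10 plasminogen system and inhibitor genes 1 fell, Cst3, the secreted cysteine protease inhibitor cystatin C, 1.44-fold (adjusted p 0.0386, and 0.0506 to 0.141 without 1 array). None of 15 elastic fibre genes passed by limma.

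Cell type markers are given beside these results because fewer cells of a type and less RNA per cell cannot be told apart in such cultures. Summed log2 levels of 8 mural cell markers were 39.7 to 42.3 in the knockdown and 42.5 to 44.0 in the control, without overlap, and 1 of the 8 fell, Rgs5, a pericyte gene, 2.64-fold. Without Rgs5, a sum added after the values were seen, the other 7 mural markers overlapped, at 34.9, 32.98 and 35.93 in the knockdown and 34.47, 35.43 and 35.74 in the control. Those of 8 fibroblast and meningeal markers were 38.1 to 39.9 in the knockdown and 39.4 to 40.3 in the control, with 0 of 8 called by limma. Those of 9 astrocyte markers were 70.0 to 73.3 in the knockdown and 72.3 to 73.7 in the control, and those of 9 endothelial markers 33.5 to 35.5 in the knockdown and 34.2 to 34.7 in the control, with 0 called by limma in either list. Oligodendrocyte lineage markers summed to 40.6 to 46.2 in the knockdown and 39.1 to 41.8 in the control, where 1 of 7 rose, Pdgfra, by 2.80 (adjusted p 0.0104 by limma, and 0.0575 without control replicate 2). Those of 9 microglial markers were 39.8 to 40.9 in the knockdown and 40.4 to 42.8 in the control, and those of 8 neuron markers 85.2 to 87.7 in the knockdown and 84.4 to 87.7 in the control, where 1 of the 8 rose and 1 fell. Dcx, of young neurons, rose by 0.76 (adjusted p 0.0236 by limma, and up to 0.077 without 1 array) and Snap25, of synaptic terminals, fell by 0.51 (0.0471, and up to 0.168 without 1 array). Syn1, a synaptic vesicle gene, had the largest difference of the neuron markers, -0.89, with an adjusted p of 0.053, or 0.0125 with the block. Of the 8 fibroblast and meningeal markers 5 lay above 0 and 3 below, with Pdpn at -0.84 without overlap (adjusted p 0.0805 by limma, or 0.052 with the block). Of the 9 astrocyte markers 3 lay above 0 and 6 below. Among them Gja1 was at -0.59 with overlap (adjusted p 0.166 by limma, or 0.0385 with the block). Of the 9 microglial markers 3 lay above 0 and 6 below, with 0 called by limma. Without overlap were Csf1r at -0.46 (adjusted p 0.119 by limma, or 0.0339 with the block) and Cx3cr1 at -0.31 (0.190, or 0.124 with the block). That is 22.2% of the list without overlap, against 25.5% of all genes. The called share was 12.5% for mural, 14.3% for oligodendrocyte lineage and 25% for neuron markers, against 7.8% of all genes. It was 0% for the astrocyte, microglial, endothelial and fibroblast lists. All 8 neuron markers lay above the median level, where 14.6% of all genes were called. The part of the cell type markers in the falls of Fbln1, Col8a1 and Col26a1 was not tested.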

How the data were processed

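Total RNA of 6 samples, 3 knockdown and 3 control, was read on 1 Affymetrix array each. Per the submitters' processing notes, the deposited log2 levels are RMA values, and the software was Expression Console (Affymetrix), version 1.2.1.20. The table holds 41345 probe sets, of which the platform annotation pairs 23521 with 1 gene symbol. Samples were grouped by their titles. Background correction could not be repeated, and scan batches and the genome build are not given in the sources used here. The number of arrays limits the precision.

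Knockdown was compared with control in R 4.3.3 with limma 3.58.1, by lmFit followed by eBayes with no trend, over 22180 genes with Benjamini-Hochberg adjustment, and called at an adjusted p under 0.05. Deviations from group means correlated at 0.43, 0.12 and 0.37 across all genes where knockdown and control arrays had the same number, and from -0.38 to 0.06 otherwise. All 3 such pairs exceeded 0.1, which met the criterion for pairing by number over all genes, from the data and not the labels. Over the 118 members alone it was not met: same-numbered values were 0.14, -0.04 and 0.51, and the others ran from -0.43 to 0.34. Counts and p-values are from the fit without pairing unless the block is named.

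Named by rule were the called members, the brightest and the smallest-p member of each of 12 classes, and up to 4 called genes of each list. Crk and all members named beyond that were chosen after their values were seen. Members and lists were chosen with earlier results of these data known. Gene symbols come from the platform annotation, all 118 members matched RefSeq by Entrez number, and promoter sequences are RefSeq's (GRCm38.p6). The alternatives tried were each array left out in turn, the replicate block, quantile normalization, median centring, only genes above the median level, an intensity trend, array weights, RNA integrity as a covariate and the mean of all probe sets. Figures were drawn with matplotlib 3.10.9.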

Additional observations from a re-analysis of the deposited data

How the results depend on the processing

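The counts of 1 member higher and 3 lower became 8 lower with the replicate block, 7 with array weights, 6 of 47 with only genes above the median level and 0 once RIN was a covariate, and 0 higher with quantile normalization. The share of all genes called in either direction, 7.8% without these changes, was 11.7%, 12.2%, 19.6%, 3.42% and 7.9% in the same order. Leaving out 1 array gave 0 to 1 higher and 0 to 6 lower. Median centring, an intensity trend and the mean of all probe sets kept both counts within 1.5 times, and the median difference of members stayed within its spread between arrays under all 14 alternatives. For 57 genes and 790 values in all, 667 kept direction and side of the threshold, 85 lost a call, 18 gained one and 20 turned direction. None of the genes that turned had been called, and the cause was not tested. With RNA integrity as a covariate the difference was -0.57 for Dcn, 0.13 for Sparc, 0.20 for Fn1, 0.0328 for Nid1 and -0.0525 for Mmp9, and with array weights -0.31 for Dcn. Without 1 array the difference ranged as follows. Dcn ran from -0.77 to 0.53, Itgav from -0.11 to 0.41, Sparc from -0.28 to 0.11, Fn1 from -0.32 to 0.16, Col9a2 from -0.0017 to 0.0633, Col3a1 from -0.02 to 0.59, Nid1 from -0.44 to 0.13, Itgb8 from -0.28 to 0.38 and Fbln5 from -0.085 to 0.59. Signal over background was not measured, so what it limits in the 71 members at or below the median level is unknown.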
